A study of Mus musculus with 18 samples.

Results

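The W131A substitution was examined in peripheral T cells that lacked Cbl-b, by setting 3 libraries of naive Cbl-b-/-W131AOTII CD4 T cells against 3 libraries of naive Cbl-b-/- OTII CD4 T cells. These 6 libraries, of 18 in the series, were taken by their labelled genotype. Mice of both genotypes were on the C57BL/6 background and lacked Cbl-b. Both expressed OT-II, a transgenic receptor for an ovalbumin peptide, so W131A is the labelled difference in genotype between them. A second pair of groups with Cbl-b, W131AOTII and OTII, served to show where the effect of W131A differed, with 3 libraries each. The sort took CD4 T cells from spleen and lymph nodes that were low for CD44, positive for CD62L and Va2 and negative for CD25. The labels give 6 Cbl-b-/-W131AOTII mice at 2 per group, 3 Cbl-b-/- mice, 12 W131AOTII mice at 4 per group and 3 OTII mice, so cells of the W131A genotypes were pooled. No number per group is given for the genotypes without W131A, so labelled pooling cannot be told apart from W131A in either comparison. The sources used here do not say how mice map to libraries, and p-values therefore measure the spread between these libraries.

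W131A is a substitution in ZAP-70, the kinase that binds the phosphorylated T cell receptor complex and passes its signal on, and it loosens the autoinhibited form of the kinase. The series calls the W131AOTII mouse a genetically encoded model of anergy, a state in which T cells that have met antigen without costimulation respond poorly. Cbl-b attaches ubiquitin to signalling proteins and so dampens T cell receptor signals, and its loss makes T cells easier to activate. The study asks which signalling pathways under Cbl-b govern responsiveness in anergy, and the comparison described here asks what W131A still changes once Cbl-b is gone.

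Total counts were 31666268, 25634489 and 27156087 in Cbl-b-/-W131AOTII libraries 1 to 3, against 19708218, 23850362 and 28538215 in Cbl-b-/- OTII libraries. Across the most variable genes of the 6 libraries, component 1 (44.2% of variance) separated the groups, with Cbl-b-/-W131AOTII libraries between -20.3 and -16.9 and Cbl-b-/- OTII libraries between 6.74 and 31.9. Component 2 (24.3%) spread the Cbl-b-/- OTII libraries, from -28.6 for replicate 2 to 22.3 for replicate 1. Summed ribosomal protein transcripts were 7073 to 7977 CPM (counts scaled to library size with TMM factors) in Cbl-b-/-W131AOTII cells and 7458 to 19360 CPM in Cbl-b-/- OTII cells, with replicate 2 at the top. Among the libraries with Cbl-b, W131AOTII replicate 2 stood apart through its B cell and myeloid transcripts. Cd4 was at 938 to 1049 CPM in Cbl-b-/-W131AOTII cells and 1257 to 1334 CPM in Cbl-b-/- OTII cells, and of 15 CD4 T cell markers 0 rose and 1 fell. That was Trac, the alpha chain constant segment, whose call was lost in 11 alternatives, scaling by library size and 5 of the fits that left out a library among them; 3 markers fell without Cbl-b-/- OTII replicate 3. Cblb itself was at 111, 87.2 and 82.8 CPM in Cbl-b-/-W131AOTII cells, against 67.2, 51.0 and 90.5 CPM in Cbl-b-/- OTII cells (edgeR adjusted p = 0.203), and in OTII cells with the gene intact at 122 to 142 CPM. The deleted exon is not named in these sources, so whole-gene counts do not check the knockout. Zap70 was at 183 to 223 CPM in Cbl-b-/-W131AOTII cells and 214 to 334 CPM in Cbl-b-/- OTII cells (adjusted p = 0.393), and a substitution of 1 residue cannot be read from gene counts.

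W131A moved a small part of the transcriptome of cells without Cbl-b. Of 15204 genes tested, 122 rose (0.802%) and 165 fell (1.09%), together 1.89%, in Cbl-b-/-W131AOTII against Cbl-b-/- OTII cells at an adjusted p under 0.05. At least 2-fold changes were seen for 89 of the genes that rose and 91 of those that fell. Regulatory T cell genes led the genes that rose, and interferon-inducible genes stood high among those that fell. The total was sensitive to single libraries: it was 168, 144 and 144 without Cbl-b-/-W131AOTII replicates 1, 2 and 3, 186 without Cbl-b-/- OTII replicate 1 and 946 without Cbl-b-/- OTII replicate 3. The median of all genes was -0.02 on the log2 scale. When libraries were scaled by their size alone that median was 0.08, and 186 genes rose and 116 fell.

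**Figure D1:**
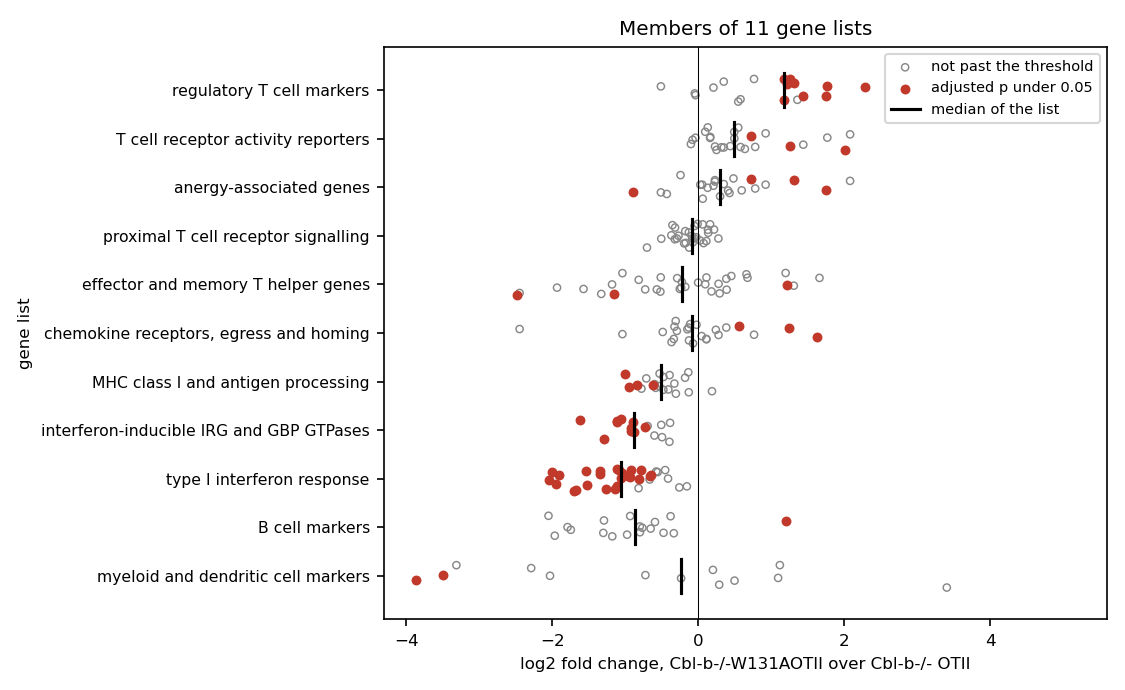
Log2 fold change of Cbl-b-/-W131AOTII over Cbl-b-/- OTII cells for the tested members of 11 gene lists, 1 point per gene, filled in red where the edgeR adjusted p was under 0.05, with a black bar at the median of the list. All 32 members of the type I interferon list and all 16 IRG and GBP members lie left of 0, and 9 of 18 regulatory T cell markers are filled on the right.

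Interferon-inducible genes were lower throughout in Cbl-b-/-W131AOTII cells. Interferons act through receptors coupled to JAK kinases, which activate transcription factors of the STAT and IRF families, and these bring up antiviral effectors (type I interferon) and the IRG and GBP families of GTPases that attack pathogen vacuoles (mainly interferon-gamma). Of 32 type I interferon response genes, 24 fell and 0 rose, with a list median of -1.05 on the log2 scale against -0.02 over all genes tested. Of 16 IRG and GBP GTPases, 10 fell and 0 rose, with a median of -0.89. The remaining members of both lists also had negative values without passing the test. Without single libraries the counts ran from 18 to 26 and from 7 to 11.

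Among the signal-carrying members, Irf7, the factor that amplifies the type I response, was at 208, 204 and 272 CPM in Cbl-b-/-W131AOTII cells, against 521, 563 and 423 CPM in Cbl-b-/- OTII cells (log2 fold change -1.14, SE 0.19, adjusted p = 0.00165). Irf9, a subunit of the factor that binds interferon response elements, fell by 0.66 (SE 0.11, adjusted p = 0.00179). Stat2, its partner, was at -0.58 and did not pass (adjusted p = 0.0536). Usp18, which damps the interferon receptor, fell by 0.81 (SE 0.14). The cytosolic RNA sensors Ifih1 and Dhx58 fell as well, by 0.79 and 0.96, whereas the sensor Ddx58 stood at -0.16 with an adjusted p of 0.63.

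Among the antiviral effectors, Rsad2, which encodes viperin (ENSMUSG00000020641, chromosome 12, 26442746 to 26456452 on GRCm38), was at 11.5, 11.7 and 10.4 CPM in Cbl-b-/-W131AOTII cells, against 40.3, 32.2 and 34.96 CPM in Cbl-b-/- OTII cells (log2 fold change -1.68, SE 0.21, adjusted p = 0.000103). Isg15, a ubiquitin-like modifier, was at 23.4, 23.5 and 25.5 CPM in Cbl-b-/-W131AOTII cells, against 86.2, 149 and 55.7 CPM in Cbl-b-/- OTII cells (-2.00, SE 0.28, adjusted p = 0.000372). Groups did not overlap for either gene, but the Isg15 level was widely spread over the Cbl-b-/- OTII libraries, highest in replicate 2. Ifit3, which binds viral RNA with its partners, was at 45.8, 32.5 and 47.6 CPM in Cbl-b-/-W131AOTII cells, against 155, 136 and 121 CPM in Cbl-b-/- OTII cells (-1.71, SE 0.20). Ifit3 and Ifit3b are near-identical copies, so how reads were split between them is uncertain. Ifit1 fell by 1.35 (SE 0.18), Oasl2 of the oligoadenylate synthetase family by 1.54 (SE 0.19), Cmpk2, a mitochondrial nucleotide kinase next to Rsad2, by 1.12 (SE 0.15), and Ifitm3, which blocks viral entry, by 2.05 (SE 0.30). Ube2l6, the conjugating enzyme for Isg15, fell by 1.83 (SE 0.23).

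Of the GTPases, Igtp had the smallest adjusted p. Igtp (Irgm3; ENSMUSG00000078853, chromosome 11, 58199556 to 58207591) was at 758, 628 and 700 CPM in Cbl-b-/-W131AOTII cells, against 1575, 1497 and 1457 CPM in Cbl-b-/- OTII cells (-1.12, SE 0.11, adjusted p = 1.42e-05). Irgm1, a regulatory IRG protein, was at 393, 317 and 336 CPM in Cbl-b-/-W131AOTII cells, against 738, 662 and 771 CPM in Cbl-b-/- OTII cells (-1.05, SE 0.12, adjusted p = 6.31e-05). In Gbp2, a guanylate-binding protein, the levels were 341, 280 and 279 CPM in Cbl-b-/-W131AOTII cells and 705, 636 and 597 CPM in Cbl-b-/- OTII cells (-1.11, SE 0.14). For each of these 3 genes every Cbl-b-/-W131AOTII library was below every Cbl-b-/- OTII library. The steepest value in the family was that of Gbp10, at -1.62 (SE 0.25), and Tgtp1 and Tgtp2, which are near-identical copies and uncertain for that reason, were at -0.93 and -0.88. Gbp4 (-0.40), Gbp6 (-0.69) and Gvin1 (-0.39) did not pass.

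**Figure D2:**
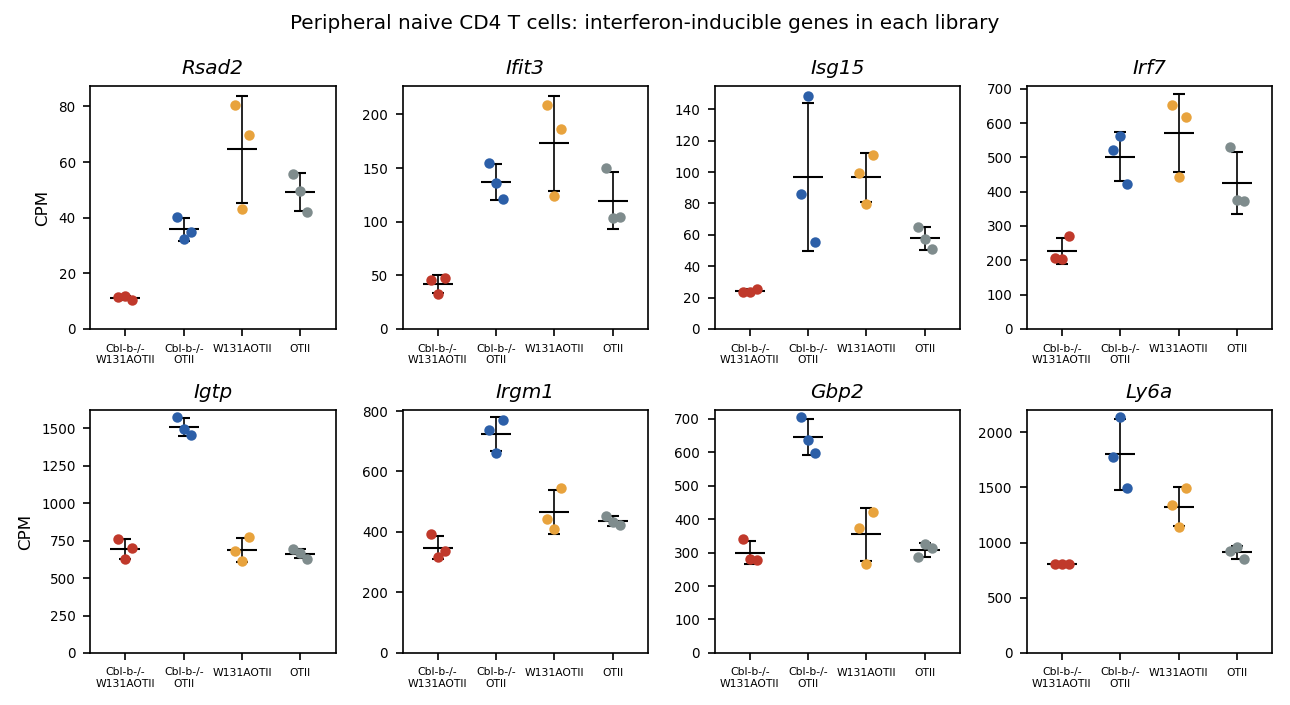
Level in CPM (linear axis from 0) of 8 interferon-inducible genes in the 4 peripheral groups, with 1 point per library and the mean with its SD (n = 3). For Igtp, Irgm1 and Gbp2 the Cbl-b-/- OTII libraries stand above the other groups, whereas for Rsad2 and Ifit3 the Cbl-b-/-W131AOTII libraries stand below them.

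Some promoters of these genes hold letters that interferon-activated factors are known to bind, and the sequences below, each from a gene with a match, are shown because members of both interferon lists fell. Each is from RefSeq (GRCm38.p6), upstream of the annotated start, 5′ to 3′ on the strand of the gene. Capitals mark a match to the core of the interferon-stimulated response element, which is GAAA, any 2 bases and GAAA, or on the other strand TTTC, any 2 bases and TTTC.
Rsad2: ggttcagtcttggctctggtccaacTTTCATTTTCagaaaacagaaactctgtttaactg
Ifit3: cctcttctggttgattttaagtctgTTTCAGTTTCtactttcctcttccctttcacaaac
Igtp: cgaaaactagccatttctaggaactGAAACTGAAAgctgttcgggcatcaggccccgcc
Irgm1: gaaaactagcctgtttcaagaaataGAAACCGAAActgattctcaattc
Gbp2: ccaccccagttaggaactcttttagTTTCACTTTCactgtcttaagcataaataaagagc
The windows are chr12:26456538-26456597 (minus strand) for Rsad2, chr19:34583382-34583441 (plus) for Ifit3, chr11:58199497-58199555 (plus) for Igtp, chr11:48871421-48871469 (minus) for Irgm1 and chr3:142620579-142620638 (plus) for Gbp2. The marked match lay 15 to 24 bases before the start in Irgm1 and 25 to 34 in Igtp, and 111 to 120 in Rsad2. The search counted 2 matches each in Irgm1 and Ifit3, of which 1 is marked. In Irgm1 the unmarked one, gaaataGAAA, overlaps the marked one. The window of Ifit3b had the same letters as that of Ifit3.

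In the 250 bases upstream, the response element core was found in 22 of 124 genes that fell and had a promoter entry (17.7%) and in 3 of 83 that rose (3.61%), beside 341 of all 10264 tested genes with an entry (3.32%). On the IRG and GBP list all 9 genes with an entry held it, and on the type I list 10 of 23 did (43.5%). For Oasl2, Cmpk2, Ube2l6 and Ifitm3 no match to this core or to the sequence described next was found. A gene without a promoter entry would give the same result. Among genes that fell and are on neither interferon list, 7 of 99 held it (7.07%). The gamma-activated sequence, TTC, any 3 bases and GAA, which reads the same on both strands, was in 17 of the 124 genes that fell (13.7%), beside 7.2% of all, and in 6 of the 9 IRG and GBP genes. In Igtp it lay just upstream of the response element core, without overlap:
Igtp: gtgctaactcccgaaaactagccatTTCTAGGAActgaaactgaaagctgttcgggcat
The window is chr11:58199486-58199544, with the gamma-activated sequence in capitals, 37 to 45 bases before the start. Among genes that fell and are on neither interferon list, 9 of 99 held the gamma-activated sequence (9.09%). Of 13 regulatory T cell genes with an entry, 0 held the response element core and 3 held the gamma-activated sequence (23.1%). A match is a description of the letters, not evidence of binding.

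The lists differed in where the levels stood relative to OTII cells, whose libraries are not part of the comparison above. In the type I list, 28 of 32 members had all Cbl-b-/-W131AOTII libraries below all OTII libraries, beside 20% of all genes tested. All Cbl-b-/- OTII libraries were above all OTII libraries for 7 members, beside 14.9%, and below for 3, beside 15.3%. In the IRG and GBP list the counts ran the other way: 1 of 16 had its Cbl-b-/-W131AOTII libraries below OTII and 5 above, beside 19.7% of all genes tested above, and all 16 had their Cbl-b-/- OTII libraries above. Rsad2 was at 55.8, 49.4 and 42.1 CPM in OTII cells, so both groups without Cbl-b were lower than OTII, and those with W131A furthest. Igtp was at 694, 665 and 631 CPM in OTII cells, within the range of the Cbl-b-/-W131AOTII libraries and under that of the Cbl-b-/- OTII libraries.

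**Figure D3:**
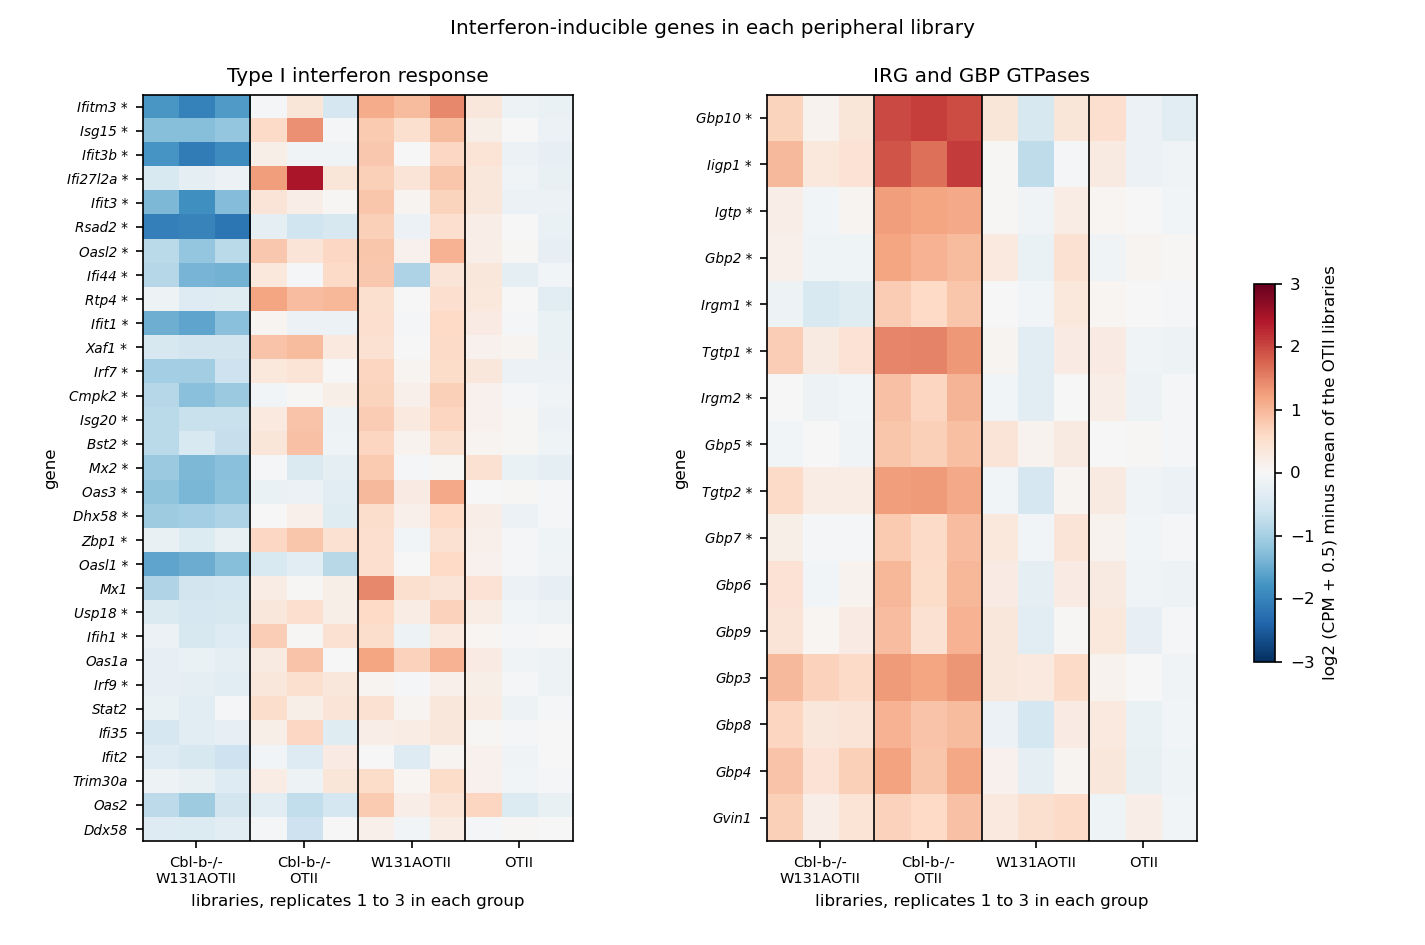
Each column is 1 peripheral library and each row 1 gene of the type I interferon list (left, 31 of its 32 tested genes) or the IRG and GBP list (right), coloured by log2 (CPM + 0.5) minus the mean of the OTII libraries, with an asterisk where Cbl-b-/-W131AOTII and Cbl-b-/- OTII cells differed at an adjusted p under 0.05. On the left, the Cbl-b-/-W131AOTII columns are blue, with all 3 libraries below the OTII mean for the 31 genes drawn; on the right, the Cbl-b-/- OTII columns are red for all 16 genes.

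Genes of MHC class I presentation, which interferons also induce, gave fewer calls. Of 20 genes, 4 fell and 0 rose, with a median of -0.50. The genes that fell were H2-T23, a nonclassical class I gene (-0.95, SE 0.17, adjusted p = 0.0035), Tap1 of the peptide transporter (-0.61, SE 0.12), and the immunoproteasome subunits Psmb9 and Psmb10 (adjusted p = 0.0295 and 0.0455), which lost their calls in 8 and 9 alternatives. Classical H2-K1 was at 5152 to 6089 CPM in Cbl-b-/-W131AOTII cells and 6347 to 8081 CPM in Cbl-b-/- OTII cells (adjusted p = 0.196). The number that fell was 10 without Cbl-b-/- OTII replicate 3, 3 without its replicate 1, and 2 without any other library of the comparison. Ly6a, the surface protein Sca-1, was at 805, 804 and 807 CPM in Cbl-b-/-W131AOTII cells, against 1775, 2134 and 1490 CPM in Cbl-b-/- OTII cells (-1.16, SE 0.15), and its W131A libraries were nearly equal. Cd274, the ligand PD-L1, fell by 0.74 (SE 0.16), and passed in all but 3 of the fits that left out a library (largest adjusted p 0.107).

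Summed transcripts of B cells stood lower as well in Cbl-b-/-W131AOTII cells, and so did those of myeloid cells, mainly through Lyz2. Over 18 B cell markers the sums were 286, 298 and 270 CPM in Cbl-b-/-W131AOTII cells, against 934, 885 and 553 CPM in Cbl-b-/- OTII cells; 17 of 18 had negative values, 0 fell and 1 rose, Cd72, a coreceptor of B cells (0 to 1 in each direction without single libraries). Over 13 tested of 20 myeloid and dendritic cell markers the sums were 10.7 to 14.8 CPM in Cbl-b-/-W131AOTII cells and 27.9 to 45.8 CPM in Cbl-b-/- OTII cells, and 2 fell, the lysozyme Lyz2 and the macrophage pore protein Mpeg1. Lyz2 averaged 1.59 CPM in Cbl-b-/-W131AOTII and 23.2 CPM in Cbl-b-/- OTII cells, which is most of the difference in sums, and lost its call in 6 alternatives. Of the 13 myeloid markers 7 had negative and 6 positive values (median -0.235), and 0 to 2 fell without single libraries. No B cell marker was at 0; of the myeloid markers Clec9a and Siglech were at 0 in Cbl-b-/-W131AOTII and Cd14 in Cbl-b-/- OTII libraries. In a bulk library, fewer cells of a type and less RNA per cell cannot be told apart, and the part of these transcripts in the interferon result was not tested. W131AOTII replicate 2 had the highest B cell sum of the peripheral libraries, 4242 CPM, and its Rsad2 and Igtp levels, 43.2 and 613 CPM, were the lowest of its group. In Cbl-b-/- OTII libraries 1 to 3 the B cell sums were 934, 885 and 553 CPM. There Igtp was at 1575, 1497 and 1457 CPM and Rsad2 at 40.3, 32.2 and 34.96 CPM. Whether the levels of these genes go with the B cell sums was not tested, and 3 libraries per group are too few to show it. Without the 3 libraries that stood apart in the series (W131AOTII replicate 2, Cbl-b-/- OTII replicate 2 and thymic OTII replicate 3), 24 type I interferon genes and 11 IRG and GBP genes fell, among 103 genes that rose and 113 that fell in all. Without the same libraries, the test of the difference between the W131A effects called 23 type I interferon genes and 8 IRG and GBP genes, all with the lower effect in cells lacking Cbl-b. Cbl-b-/- OTII replicate 1, with the highest B cell sum of the comparison (934 CPM), stayed in these fits. They therefore do not separate the interferon result from the B cell and myeloid transcripts.

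Genes of regulatory T cells mostly had higher values. Of 18 markers, 9 rose and 0 fell, with a list median of 1.17, and leaving out single libraries gave 7 to 10. Values were positive for 15 markers and negative for 3. In a bulk library, more regulatory T cells and more RNA of these genes per cell cannot be told apart. Foxp3, the lineage factor (ENSMUSG00000039521, chromosome X, 7573644 to 7595245), was at 125, 125 and 114 CPM in Cbl-b-/-W131AOTII cells, against 31.7, 51.2 and 51.8 CPM in Cbl-b-/- OTII cells (log2 fold change 1.43, SE 0.20, adjusted p = 0.000283). Lrrc32, the anchor of latent TGF-beta known as GARP (chromosome 7, 98489283 to 98502181), was at 67.7, 77.6 and 75.8 CPM in Cbl-b-/-W131AOTII cells, against 12.1, 16 and 17.3 CPM in Cbl-b-/- OTII cells (2.28, SE 0.20, adjusted p = 4.52e-06). The libraries of the groups did not overlap for either gene. Ikzf2 (Helios) rose by 1.77 (SE 0.36), Nrp1 (neuropilin-1) by 1.32 (SE 0.15), Ikzf4 (Eos) by 1.18 (SE 0.15) and the receptor gene Gpr83 by 1.17 (SE 0.13). Others of the list had values that did not pass, among them Ctla4 (0.35, adjusted p = 0.471), a coinhibitory receptor, and Tnfrsf18 (-0.04), which encodes GITR.

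Few cytokine and cytokine receptor genes passed. Of 35, 2 rose (Il2ra and Il2rb) and 1 fell, Il1rl1, the IL-33 receptor ST2 (-2.35, adjusted p = 0.0214, lost in 4 alternatives), with a median of 0.02 and 18 positive against 17 negative values. Il2ra, the CD25 chain whose protein was absent by the sort, was at 87.1, 80.6 and 77.2 CPM in Cbl-b-/-W131AOTII cells, against 32.3, 37.1 and 33.3 CPM in Cbl-b-/- OTII cells (1.25, SE 0.16, adjusted p = 0.000135). Il2rb, the chain shared by the IL-2 and IL-15 receptors, rose by 1.21 (SE 0.24); without Cbl-b-/- OTII replicate 1 its adjusted p was 0.0589. Cish, an inhibitor induced by STAT5, was at 43.1, 40.2 and 42.0 CPM in Cbl-b-/-W131AOTII cells, against 18.3, 19.9 and 20.7 CPM in Cbl-b-/- OTII cells (1.09, SE 0.14, adjusted p = 0.000123). Socs3, an inhibitor of gp130 signalling, was at 409, 446 and 490 CPM in Cbl-b-/-W131AOTII cells, against 289, 328 and 239 CPM in Cbl-b-/- OTII cells (0.65, SE 0.15, adjusted p = 0.0218). Socs3 lost its call without Cbl-b-/-W131AOTII replicate 2 or 3 or Cbl-b-/- OTII replicate 1 (largest adjusted p 0.0945). Cish and Socs3 were the only members that rose among 28 negative regulators of T cell receptor signalling, and 0 fell.

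Genes that report T cell receptor signals mostly had positive values, but few passed. Nr4a1, the receptor-induced gene for Nur77, was at 47.0, 51.7 and 51.4 CPM in Cbl-b-/-W131AOTII cells, against 28.3, 35.3 and 27.7 CPM in Cbl-b-/- OTII cells (0.72, SE 0.16, adjusted p = 0.0183), and lost its call without Cbl-b-/-W131AOTII replicate 2 or 3 or Cbl-b-/- OTII replicate 1 (largest adjusted p 0.0741). Of 25 such reporters, 3 rose (Nr4a1, Il2ra and Spry1, a Ras pathway inhibitor lost in 4 alternatives) and 0 fell. Over all genes tested, 0.802% rose and 1.09% fell. The median of the reporters was 0.49, with 22 positive and 3 negative values. The number of reporters that rose was 1 without Cbl-b-/- OTII replicate 1 and 5 without its replicate 3. Egr2, a factor tied to anergy, was at 17.6 to 20.9 CPM in Cbl-b-/-W131AOTII cells and 15.5 to 18.7 CPM in Cbl-b-/- OTII cells (adjusted p = 0.484). Cd5, which tracks signal strength in naive cells, was at 220 to 240 CPM in Cbl-b-/-W131AOTII cells and 170 to 217 CPM in Cbl-b-/- OTII cells (adjusted p = 0.458). Of 23 anergy-associated genes 3 rose, Nr4a1, Nrp1 and Nt5e (the ectoenzyme CD73; 1.76, SE 0.29), and 1 fell, Ndrg1, a factor linked to clonal anergy (-0.89, SE 0.14); 7 rose without Cbl-b-/- OTII replicate 3, and 2 to 3 without any other library of the comparison. Of the 23 values, 19 were positive and 4 negative. Those that did not pass include Izumo1r, the folate receptor FR4, at 0.21 (adjusted p = 0.72) and Pdcd1, which encodes PD-1, at 0.41 (adjusted p = 0.539).

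The signalling machinery itself gave few calls in edgeR at an adjusted p under 0.05. No gene passed among 29 of proximal T cell receptor signalling (median -0.08), 28 of the PI3K, AKT, mTOR and FOXO pathway (0.14), 24 of the NF-kB pathway (-0.02), 16 anergy-linked ubiquitin ligases and partners (0.09) and 13 tested AP-1 and BATF factors. Among 22 calcium and NFAT genes Ppp3cc, a catalytic subunit of calcineurin, rose by 0.63 (SE 0.15), a call lost in 6 alternatives. On the lists with 0 calls, without Cbl-b-/- OTII replicate 3, 2 proximal signalling genes fell and 1 ubiquitin ligase or partner rose, and without Cbl-b-/-W131AOTII replicate 2, 2 AP-1 and BATF factors rose; the PI3K and NF-kB lists stayed at 0 whichever library of the comparison was left out. DESeq2 called 1 proximal signalling gene lower, 1 NF-kB gene and 2 AP-1 and BATF factors higher, and 0 on the other lists. Over all genes tested, 2601 had an unadjusted p under 0.05.

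Survival, homing and effector genes gave scattered changes. Bcl2, the survival factor, was at 376, 263 and 270 CPM in Cbl-b-/-W131AOTII cells, against 137, 109 and 178 CPM in Cbl-b-/- OTII cells (1.10, SE 0.19, adjusted p = 0.00289), and the kinase gene Pim1 rose by 1.12 (SE 0.26), a call lost in 5 alternatives. Of 24 chemokine receptor, egress and homing genes 3 rose and 0 fell, namely P2rx7, an ATP-gated channel (1.63, SE 0.31), the follicular homing receptor gene Cxcr5 (1.24, SE 0.31) and Klf3, a transcription factor gene of the KLF family (0.56, SE 0.14). P2rx7 lost its call in no alternative, Cxcr5 in 7 and Klf3 in 8, and without single libraries 1 to 2 genes of this list rose. Of 33 tested effector and memory genes 1 rose, Eomes, a T-box factor whose call was lost in 7 alternatives, and 2 fell, Ly6a and Klrg1. Without single libraries 1 to 4 fell, the 4 without Cbl-b-/- OTII replicate 3. Klrg1, an inhibitory lectin receptor of differentiated cells, was at 1.06, 0.859 and 2.502 CPM in Cbl-b-/-W131AOTII cells, against 9.40, 9.27 and 6.18 CPM in Cbl-b-/- OTII cells (-2.49, SE 0.55, adjusted p = 0.0205), a call lost in 4 alternatives. Cxcr3, the receptor for interferon-induced chemokines, was at 6.68, 11.5 and 12.2 CPM in Cbl-b-/-W131AOTII cells, against 18.9, 20.4 and 22.9 CPM in Cbl-b-/- OTII cells, and just missed the threshold (-1.04, SE 0.27, adjusted p = 0.0502). Sostdc1, a BMP antagonist on the follicular helper list, had 3 counts over the Cbl-b-/-W131AOTII libraries and 56 over the Cbl-b-/- OTII libraries, a ratio of 0.0426 (95% interval 0.00852 to 0.131, counting error only). Among 16 NK and innate-like T cell markers, 12 tested, Eomes and the delta chain gene Trdc rose, with Klra8 and Ncr1 at 0 in Cbl-b-/-W131AOTII libraries. The list summed to 409 to 543 CPM in Cbl-b-/-W131AOTII cells and 235 to 336 CPM in Cbl-b-/- OTII cells, mostly through Trdc, which averaged 231 CPM in Cbl-b-/-W131AOTII and 91.0 CPM in Cbl-b-/- OTII cells and lost its call in 3 alternatives. The median of the 12 was -0.43, with 6 negative and 6 positive values.

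The strongest single genes lay partly outside these lists. Car2, which encodes carbonic anhydrase 2, was at 16.5, 16.6 and 15.6 CPM in Cbl-b-/-W131AOTII cells, against 66.8, 61.3 and 59.9 CPM in Cbl-b-/- OTII cells (-1.95, SE 0.17, adjusted p = 4.52e-06). Rell1, a TNF receptor family relative, was at 6.298, 6.54 and 8.27 CPM in Cbl-b-/-W131AOTII cells, against 27.1, 21.0 and 27.9 CPM in Cbl-b-/- OTII cells (-1.85, SE 0.20). Jup, which encodes the junction protein plakoglobin, fell by 1.82 (SE 0.23). Adgrg5, an adhesion G protein-coupled receptor gene, rose by 2.60 (SE 0.34), the endosomal protein gene Wdfy1 by 1.95 (SE 0.19), Golm1, a Golgi membrane protein gene, by 1.95 (SE 0.23) and Adam19, a membrane metalloprotease gene, by 1.71 (SE 0.22). Groups without overlap were a condition for naming these genes. In the whole comparison, 122 of the 122 genes that rose and 163 of the 165 that fell had no overlap.

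**Figure D4:**
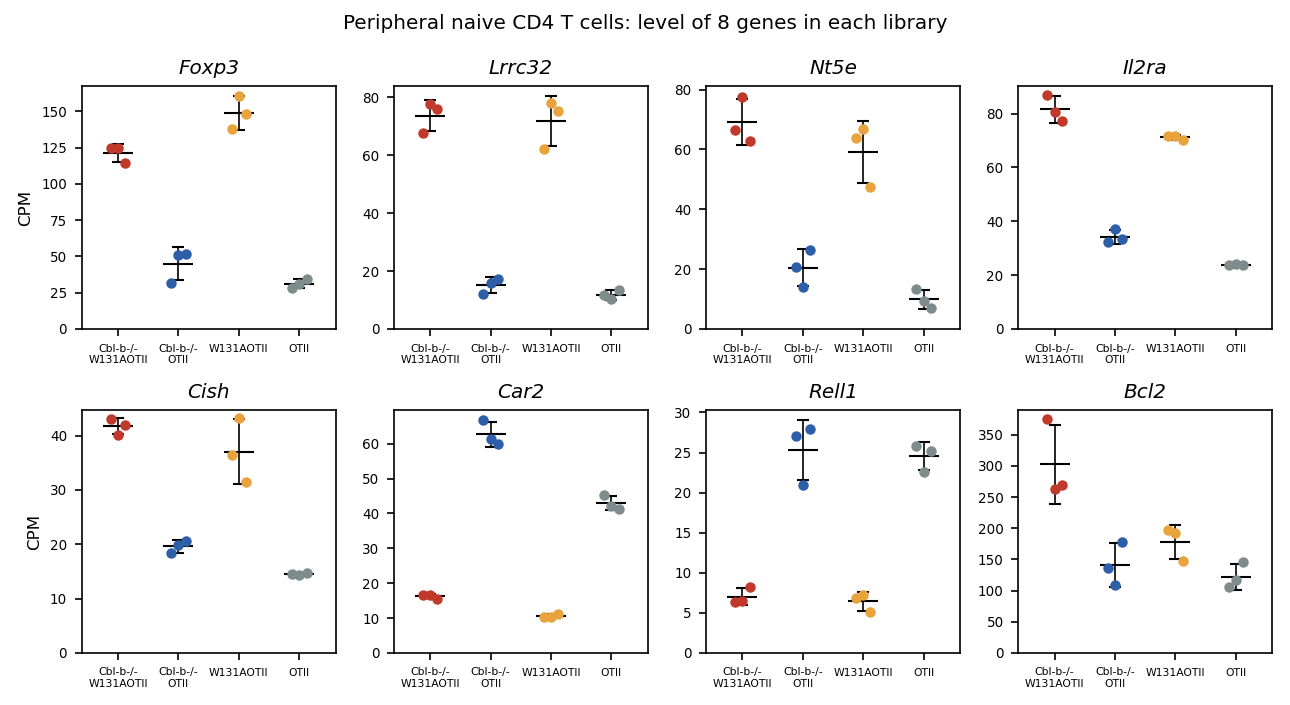
Level in CPM (linear axis from 0) of 8 genes in the 4 peripheral groups, with 1 point per library and the mean with its SD (n = 3). For Foxp3, Lrrc32, Nt5e, Il2ra and Cish both W131A groups stand above both groups without it, and for Car2 and Rell1 below; Bcl2 passed the test in the cells without Cbl-b.

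Whether these changes depended on the missing Cbl-b was asked with W131AOTII against OTII cells, which share no library with the comparison above. There, 255 genes rose (1.68%) and 38 fell (0.25%), together 1.93%. Of these, 65 genes rose in both comparisons, which is 53.3% of the genes that rose without Cbl-b and 25.5% of those that rose with it. Another 17 fell in both, 10.3% of the genes that fell without Cbl-b and 44.7% of those that fell with it. The 122 genes that rose without Cbl-b had a median of 1.24 there and of 1.19 with Cbl-b, whereas the 165 that fell had a median of -1.05 and of 0.04. Over all genes, which are not independent replicates, the fold changes had a Pearson correlation of 0.06 and a Spearman correlation of -0.03.

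Foxp3, Lrrc32, Cish, Car2 and Rell1 were among the genes that passed in the same direction on both backgrounds. Foxp3 was at 138, 161 and 148 CPM in W131AOTII cells, against 28.5, 31.1 and 34.3 CPM in OTII cells (2.25), and the test of the difference between the effects did not pass (-0.82, SE 0.28, adjusted p = 0.248). For Lrrc32 the difference was -0.33 (SE 0.28, adjusted p = 0.657), for Car2 0.07 (SE 0.24, adjusted p = 0.937) and for Cish -0.26 (SE 0.19, adjusted p = 0.597). A p above the threshold does not show that the effects are equal. Of 18 regulatory T cell markers, 14 rose with Cbl-b, and 1 had a smaller effect without it: Tnfrsf4, which encodes OX40, was at 82.9, 93.0 and 87.0 CPM in Cbl-b-/-W131AOTII cells and 48.4, 84.5 and 43.3 CPM in Cbl-b-/- OTII cells, against 64.8, 74.1 and 57.5 CPM in W131AOTII and 16.1, 15.7 and 13.02 CPM in OTII cells (difference -1.55, adjusted p = 0.0238). That call was lost when libraries were scaled by their size alone, without the 3 libraries that stood apart, and without Cbl-b-/-W131AOTII replicate 1 or 3, W131AOTII replicate 2 or OTII replicate 2 or 3.

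The difference between the effects of W131A, without Cbl-b minus with it, passed for 96 genes (0.631%), of which 90 were lower (0.592%) and 6 higher (0.0395%). The total was 169 without Cbl-b-/- OTII replicate 3, 56 without OTII replicate 2 and 49 without OTII replicate 3. Of the 90, 44 fell without Cbl-b only, 30 rose with Cbl-b only, 6 did both and 10 passed in neither comparison. Of 32 type I interferon genes 20 were lower in this test, with a median difference of -1.59, and of 16 IRG and GBP genes 8 were, with a median of -0.94. Leaving out single libraries gave 17 to 22 and 4 to 9 genes. The smaller number of IRG and GBP genes, 4, came without Cbl-b-/-W131AOTII replicate 2 or 3, W131AOTII replicate 3 or OTII replicate 2 or 3, and when libraries were scaled by their size alone. For Rsad2 the levels with Cbl-b were 80.4, 43.2 and 69.9 CPM in W131AOTII and 55.8, 49.4 and 42.1 CPM in OTII cells, a difference between the effects of -2.07 (SE 0.28, adjusted p = 0.000738). Igtp stood at 681, 613 and 773 CPM in W131AOTII and 694, 665 and 631 CPM in OTII cells, a difference of -1.17 (SE 0.16, adjusted p = 0.000569), and its groups with Cbl-b overlapped.

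Effector and memory genes were also among those whose effects differed. Cxcr3 was at 14.5, 18.5 and 9.62 CPM in W131AOTII and 2.77, 2.80 and 2.01 CPM in OTII cells, and the difference was -3.53 (SE 0.39, adjusted p = 0.000204). Il1rl1 was at 0.352, 0.336 and 1.11 CPM in Cbl-b-/-W131AOTII and 2.35, 3.86 and 3.00 CPM in Cbl-b-/- OTII cells, against 2.41, 2.93 and 2.04 CPM in W131AOTII and 0.134, 0.103 and 0.0359 CPM in OTII cells (difference -7.04, SE 0.83, adjusted p = 0.000209). Of 33 effector and memory genes, 7 had a lower effect without Cbl-b (Cxcr3, Ly6a, Gzmb, Klrg1, S100a4, S100a6 and Ccr2) and 0 a higher one. The count of 7 ran from 3 to 8 when single libraries were left out. Some of these genes were uneven within a group. Ccr2 peaked in W131AOTII replicate 2, at 7.04 CPM, against 0.850 and 1.75 CPM in replicates 1 and 3. S100a4 and S100a6 peaked in Cbl-b-/- OTII replicate 2, at 7.05 and 24.7 CPM. Ly6a was at 804 to 807 CPM in Cbl-b-/-W131AOTII cells, below the OTII libraries at 851 to 963 CPM, whereas Cxcr3, Il1rl1 and Gzmb were lowest in OTII cells. Gzmb, the cytotoxic protease granzyme B, was at 4.22, 3.18 and 2.36 CPM in Cbl-b-/-W131AOTII and 11.2, 11.4 and 6.56 CPM in Cbl-b-/- OTII cells, against 1.79, 2.67 and 2.04 CPM in W131AOTII and 0.334, 0.752 and 0.574 CPM in OTII cells, and its difference (-3.53, adjusted p = 0.0393) lost its call in 14 of 23 alternatives. Ctla4 had a difference of -1.45 that missed the threshold (adjusted p = 0.0527).

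**Figure D5:**
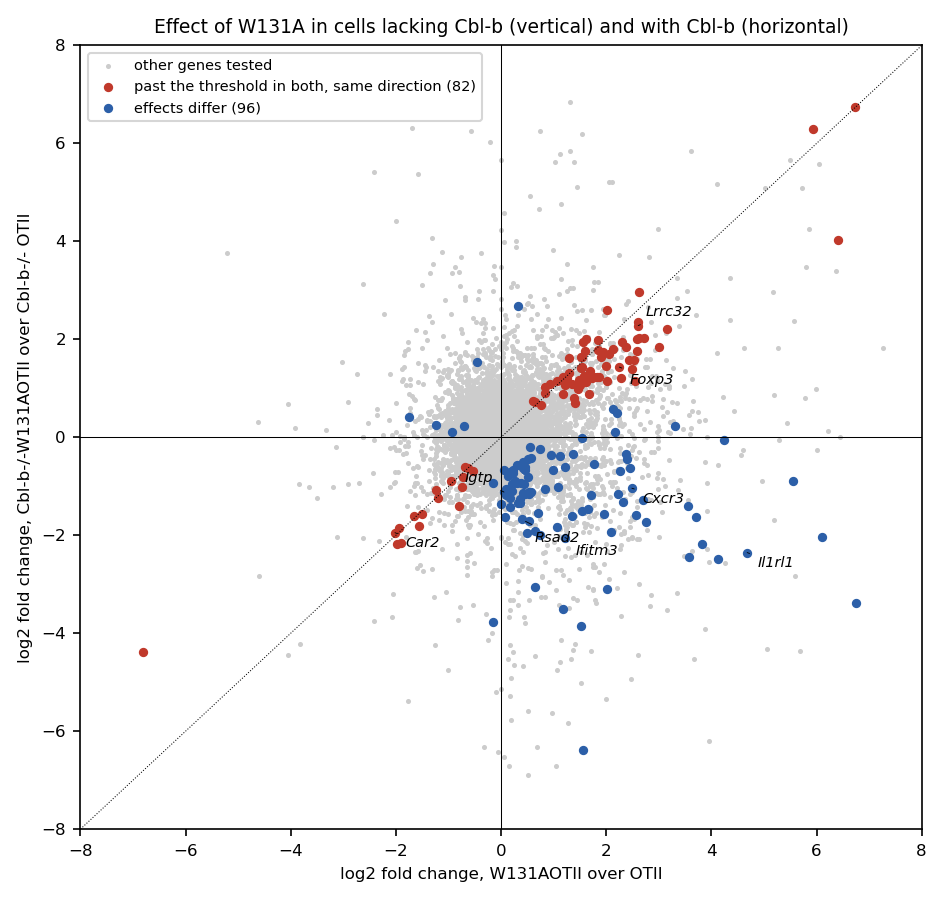
Log2 fold change of Cbl-b-/-W131AOTII over Cbl-b-/- OTII (vertical) against that of W131AOTII over OTII (horizontal), 1 point per gene tested (1 gene lies outside the axes). Red marks the 82 genes past the threshold in both and in the same direction, which lie along the diagonal; blue marks the 96 genes whose effects differed, 90 of them below the diagonal.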

How the data were processed

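The values used were the authors' deposited raw counts per Ensembl gene, with 1 column per library. The submitters' processing notes name STAR 2.7.2, GRCm38 and DESeq2. The sources used here do not give the counting step, annotation release or strand setting, so antisense and near-identical genes are uncertain. Reads were single-end, 50 bases, per the labels' protocols. The table held 55536 identifiers, all matched to GENCODE M21, and 0 columns had no sample. Groups came from the sample titles.

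All 18 libraries entered 1 edgeR 4.0.16 fit (R 4.3.3) with TMM factors and a mean for each group, leaving 12 residual degrees of freedom, on the 15204 genes that filterByExpr kept. Contrasts used its robust quasi-likelihood F test with Benjamini-Hochberg adjustment over all genes and a threshold of 0.05. SE is that of the log2 fold change in this fit. Principal components used log2 CPM with a prior count of 2. The script was tested on simulated data. A counting interval covers counting error alone: reads copied by PCR are not separate molecules.

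Members and 42 gene lists were chosen with earlier results of these data known. Lists were described by counts and medians, without a set test. 1 type I interferon gene, included in the list's counts, is not reported here. Named genes were fixed genes, up to 15 per direction past the threshold and 2-fold without overlap, 10 of the difference between effects and up to 4 members per list; the other members given are examples chosen after their values were seen. Alternatives were other scalings, filters, tools (DESeq2 1.42.0, limma 3.58.1 voom), sample sets, a replicate block, GC and length offsets and each library left out. Promoters are the 250 upstream bases of RefSeq starts on GRCm38.p6, matched by symbol for 10264 genes.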

Additional observations from a re-analysis of the deposited data

Results flagged for a closer look

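For 21 named genes the effect of W131A without Cbl-b (Cbl-b-/-W131AOTII over Cbl-b-/- OTII) differed from its effect with Cbl-b (W131AOTII over OTII) by the edgeR test of the difference itself, adjusted p under 0.05. Differences are log2, without Cbl-b minus with it, and all 21 were negative. The choice of genes for naming used this test in part, so their number is no separate support.

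Among type I interferon genes the difference was -2.07 for Rsad2, -1.71 for Ifit1, -2.24 for Ifit3, -2.44 for Ifit3b, -2.25 for Oasl2, -1.66 for Cmpk2, -3.26 for Ifitm3 and -2.89 for Ube2l6. Among GTPases it was -1.17 for Igtp, -1.15 for Irgm1, -1.31 for Gbp2 and -0.78 for Irgm2, the last of which lost its call in 14 of 23 alternatives. In class I and surface genes it was -1.26 for H2-T24, -1.16 for H2-T23 (lost in 4 of 23) and -1.70 for Ly6a.

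Receptor and effector genes had differences of -3.53 for Cxcr3, -3.53 for Gzmb (lost in 14 of 23), -7.04 for Il1rl1 and -2.88 for Ccrl2, a chemokine-binding receptor. Il1rl1 had 8 counts over the OTII libraries, so the size of its difference is uncertain. For Klrg1 the fitted value was -6.61; the OTII libraries held 1 count of this gene together, so that value depends on the prior count and is no bound, and its call was lost in 5 of 23 alternatives. Lyz2, a myeloid marker, had -5.38, with 61.8 CPM in W131AOTII replicate 2 against 3.66 and 11.8 CPM in the other W131AOTII libraries, and lost its call in 11 of 23.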

How the results depend on the processing

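In Cbl-b-/-W131AOTII against Cbl-b-/- OTII cells, 287 genes passed in the reported fit. The count was 680 with DESeq2, 1180 with no filter on low counts, 468 with the 12 peripheral libraries alone, 583 with GC content and length offsets and 537 with the replicate block and those offsets. Leaving out single libraries gave 144 to 946. For the difference between effects (96) it was 234 with DESeq2, 832 with no filter and 49 to 169 without single libraries. For W131AOTII against OTII (293) it was 478 with DESeq2, 772 with no filter, 510 with the groups compared alone and 147 to 315 without single libraries. The cause was not tested; fewer samples or another set of genes enter several of these fits.

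The labels give no pairing behind the replicate numbers. Same-numbered libraries of the groups had residual correlations of 0.03, 0.12 and -0.08, against -0.184 to 0.187 for differently numbered ones. These values cannot exclude a shared preparation. With the replicate block 105 genes rose and 144 fell.

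Of 64 named genes past the threshold in Cbl-b-/-W131AOTII against Cbl-b-/- OTII cells, 36 passed in every alternative that gave a value. The sign turned for 4 genes that had not passed: over the fits that left out a library Lag3 ran from -0.066 (without Cbl-b-/-W131AOTII replicate 3) to 0.33, and Hbb-bs from -0.711 to 1.627, Hbb-bt from -0.199 to 2.067 and Dntt from -0.019 to 0.189 (lowest without Cbl-b-/-W131AOTII replicate 2). Depth limits genes of a few counts, such as Sostdc1.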

Other observations

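Complement component C1q, made by macrophages, was lower in Cbl-b-/-W131AOTII cells. C1qb was at 0.381, 0.261 and 0.0695 CPM in Cbl-b-/-W131AOTII cells, against 2.90, 3.14 and 1.88 CPM in Cbl-b-/- OTII cells (-3.43, SE 0.72, edgeR adjusted p = 0.0146), and C1qc had 3 counts over the Cbl-b-/-W131AOTII libraries and 96 over the Cbl-b-/- OTII libraries. Both were chosen after their values were seen, and all levels are low.

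Subunits of the respiratory chain encoded in the nucleus had negative values in 32 of 34 genes (median -0.40) in Cbl-b-/-W131AOTII against Cbl-b-/- OTII cells with 0 past the threshold; 13 fell without Cbl-b-/- OTII replicate 3, 0 without any other library of the comparison and 1 with DESeq2. The 8 mitochondrially encoded genes had a median of 0.02. Ribosomal protein genes had a median of -0.59, with 2 of 81 falling (Rps15a and Rps20), and both calls were lost without the libraries that stood apart. Without Cbl-b-/- OTII replicate 3, 42 fell, and without any other library of the comparison 0 did. Of 98 T cell receptor variable segments 4 rose and 2 fell (2 to 5 and 0 to 3 without single libraries). Of 14 immature thymocyte genes 1 rose, with a median of -0.29, 8 negative and 5 positive values. It was Myb, a transcription factor, at 40.5, 46.3 and 39.5 CPM in Cbl-b-/-W131AOTII cells, against 21.0, 17.1 and 25.7 CPM in Cbl-b-/- OTII cells (0.98, SE 0.23, adjusted p = 0.0295). Without Cbl-b-/- OTII replicate 3 the list had 1 call, and without any other library of the comparison 0. No gene passed among 31 of the cell cycle, 22 of cholesterol synthesis, 22 tissue handling and heat shock and 19 unfolded protein response genes in edgeR; DESeq2 called 1, on the tissue handling and heat shock list.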
